A study of Populus x canadensis with 12 samples.

Results

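Leaves of poplar plants under severe drought (stage D2) were compared with leaves under moderate drought (stage D1). The comparison takes every drought library of the series, 8 of 12: 4 plants of D2 and 4 of D1, chosen by their stage labels and not by any measured value. The plants were rooted cuttings of Populus x canadensis, a cross of a Populus deltoides mother (L155-079) with a Populus nigra father (71077-2-308), kept in pots in a greenhouse under natural daylight. Each stage held 2 plants of hybrid 85 (clones 12 and 24 in D1, 42 and 45 in D2) and 2 of hybrid 89 (clones 10 and 15 in D1, 20 and 35 in D2). All 8 plants had been left without water, per the labels for 8 or 13 days, but no label ties a number of days to a stage. The 4 watered plants (stage C) are used only for levels beside those of the drought stages. The labels used here give neither a date of harvest nor an age, so time and severity of drought cannot be told apart. Every library came from the leaves of 1 plant with its own clone number and relative water content. These are whole-leaf samples, in which fewer cells of a type and less RNA per cell cannot be told apart.

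In woody plants a drying soil first closes the stomata, through the hormone abscisic acid, and growth slows while most leaf cells keep their water. As the leaf loses water further, transcripts for photosynthesis and growth are known to decline, and those for protective proteins, compatible solutes and the recycling of leaf material to accumulate. The deposited table lists genes by ID without names, so no ID below is given a function, the gene lists planned by name could not be applied, and the leaf label was not checked against leaf markers. Chromosome numbers are those written in the IDs, and no coordinates or sequences are given.

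Expression was given as RPKM, a read count divided by coding length and by library total. Totals recovered from the values were 3181833 to 4847233 reads in D1 and 2259634 to 3931067 in D2. At the median coding length of 1107 bp, 3 reads were worth 0.559 to 0.852 RPKM in D1 and 0.689 to 1.199 in D2, a floor that covers counting error only. Between 21472 and 22949 genes reached 1 RPKM in D1 libraries, and between 20689 and 21384 in D2 libraries, which were also the shallower ones on the whole.

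The stages stood far apart, and the D2 plants differed among themselves more than the D1 plants did. The first principal component of log2(RPKM + 1) over the 8 libraries held 57.7% of the variance. The D1 scores ran from -99.5 to -82.7 and the D2 scores from 54.1 to 156.9. Component 2, with 17.1%, separated the hybrids, at 38.4 to 61.0 for hybrid 85 and -65.1 to -19.9 for hybrid 89. Replicate 1 of hybrid 89 in D2 was the library farthest from D1. Across genes it correlated with its fellow D2 plants at a mean of 0.845, where the remaining D2 plants reached 0.891 to 0.904. With the D1 plants its mean correlation was 0.600, against 0.755 to 0.795 for the remaining D2 plants. The main counts, and other results that this plant moves, are also given without it.

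**Figure D1:**
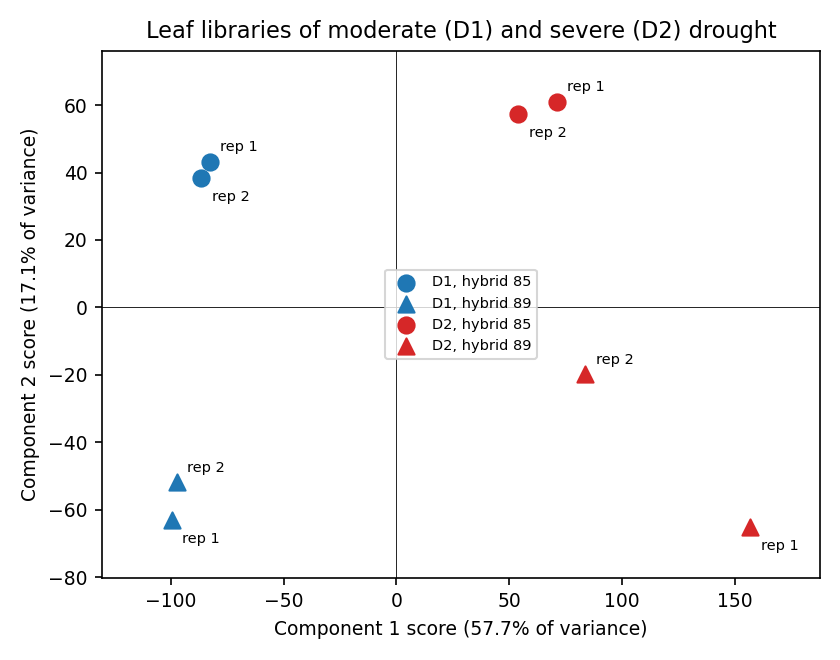
Scores of the 8 libraries on the first principal components of log2(RPKM + 1), with one point per plant, colour for stage and shape for hybrid. The stages lie on opposite sides of component 1, and replicate 1 of hybrid 89 in D2 lies farthest out, at 156.9.

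Replicate plants of D2 also differed in more genes. The median absolute difference between the replicates of a hybrid was 0.28 on the log2 scale for hybrid 85 in D1, 0.31 for hybrid 89 in D1, 0.38 for hybrid 85 in D2 and 0.53 for hybrid 89 in D2. A difference of at least 1 was found in 8.0% and 8.33% of tested genes in D1, and in 12.4% and 24.6% in D2, in the same order of hybrids. Replicate 1 of each hybrid in D2 was shallower than any D1 library, at 2259634 reads in hybrid 85 and 2348388 in hybrid 89. The part of counting error in these shares was not tested. The standard deviation over the 4 plants, over both hybrids, was larger in D2 than in D1 in 61.7% of genes, with medians of 0.50 and 0.39.

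A large part of the tested leaf transcriptome differed between severe and moderate drought, in nearly equal numbers up and down. Of 22103 genes, 3731 were higher in D2 (16.9%) and 3692 lower (16.7%), 33.6% in all (limma on log2(RPKM + 1) with hybrid as covariate, adjusted p below 0.05). Without replicate 1 of hybrid 89 in D2, 3543 genes were higher and 3421 lower. The median change of all tested genes was -0.07; since RPKM divides by the library total, a shift common to all genes would not be seen. Called rises had a median size of 1.44 on the log2 scale, and called falls were of a like size (quartiles 1.10 and 2.11). At least 2 on this scale was reached by 1094 rises and 1065 falls, and at least 4 by 187 rises and 65 falls, so the tail of very large changes held more rises.

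In 6957 genes (31.5%) the 4 D2 values and the 4 D1 values did not overlap, with D2 above in 3354 (15.2%) and below in 3603 (16.3%). Complete separation held for 81.3% of the called rises, 81.4% of the called falls and 6.24% of the genes not called. Called rises had a median of 12.7 RPKM in D1 and 45.2 RPKM in D2, with 11.6 RPKM in the watered plants. Called falls went from a median of 16.6 RPKM in D1 to 4.41 RPKM in D2, with 15.6 RPKM in the watered plants. These medians describe genes chosen on the D1 and D2 values; the watered level took no part in the choice and lay near that of D1 in both sets.

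The largest rise belonged to Potri.012G033900.1 (chromosome number 12, coding length 906 bp). It was close to the floor in moderate drought, at 0.69 and 0.34 RPKM in hybrid 85, from 2 reads and 1 read, and at 5 and 11 reads in hybrid 89. In severe drought it stood at 1109 and 1239 RPKM in hybrid 85 and at 4494 and 1244 in hybrid 89. All D2 plants lay far above all D1 plants, and replicate 1 of hybrid 89 was the highest. The watered plants had 1.93 ± 1.26 RPKM (SD, n = 4), a level like that of D1. The change was 9.64 ± 0.37 on the log2(RPKM + 1) scale (SE, limma adjusted p = 6.31e-06), close to equal in both hybrids at 9.60 and 9.68.

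The next largest rise, in Potri.008G149200.1 on chromosome number 8 (903 bp), spread more between plants. Its D1 values were 2.44 and 1.73 RPKM in hybrid 85 and 4.96 and 4.11 in hybrid 89. Its D2 values were 1864 and 488.4 RPKM in hybrid 85 and 11815 and 5341 in hybrid 89. Both D2 plants of hybrid 89 were above both of hybrid 85, and the watered plants had 2.00 ± 1.19 RPKM (SD, n = 4). On the log2 scale it rose by 9.39 ± 0.56 (SE, limma adjusted p = 2.18e-05). The rise was 8.28 ± 0.60 in hybrid 85 and 10.49 ± 0.60 in hybrid 89, and the difference of 2.21 between them did not pass (limma adjusted p = 0.257).

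The largest fall was in Potri.001G348900.1 (chromosome number 1, 1038 bp), an abundant transcript up to moderate drought. It had 6597 and 6495 RPKM in hybrid 85 and 9043 and 8153 in hybrid 89 in D1, beside 9177 ± 2997 RPKM (SD, n = 4) in the watered plants. In D2 it was left at 85.7 and 53.3 RPKM in hybrid 85 and at 32.4 and 63.0 in hybrid 89. The log2 change was -7.06 ± 0.34 (SE, limma adjusted p = 1.2e-05), with the D2 plants close together and well below D1.

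The other fall of this size, in Potri.019G093400.1 on chromosome number 19 (1839 bp), went down to the floor of detection. In D1 it had 179.3 and 224.7 RPKM in hybrid 85 and 600.5 and 182.2 in hybrid 89, from 1049 to 4442 reads. In D2 the plants of hybrid 85 had 0 reads and 1 read, and those of hybrid 89 had 8 and 32 reads, or 1.85 and 4.43 RPKM. The groups did not overlap, and the log2 change was -6.97 ± 0.42 (SE, limma adjusted p = 2.26e-05), a value that for hybrid 85 depends on the pseudocount of 1 RPKM.

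**Figure D2:**
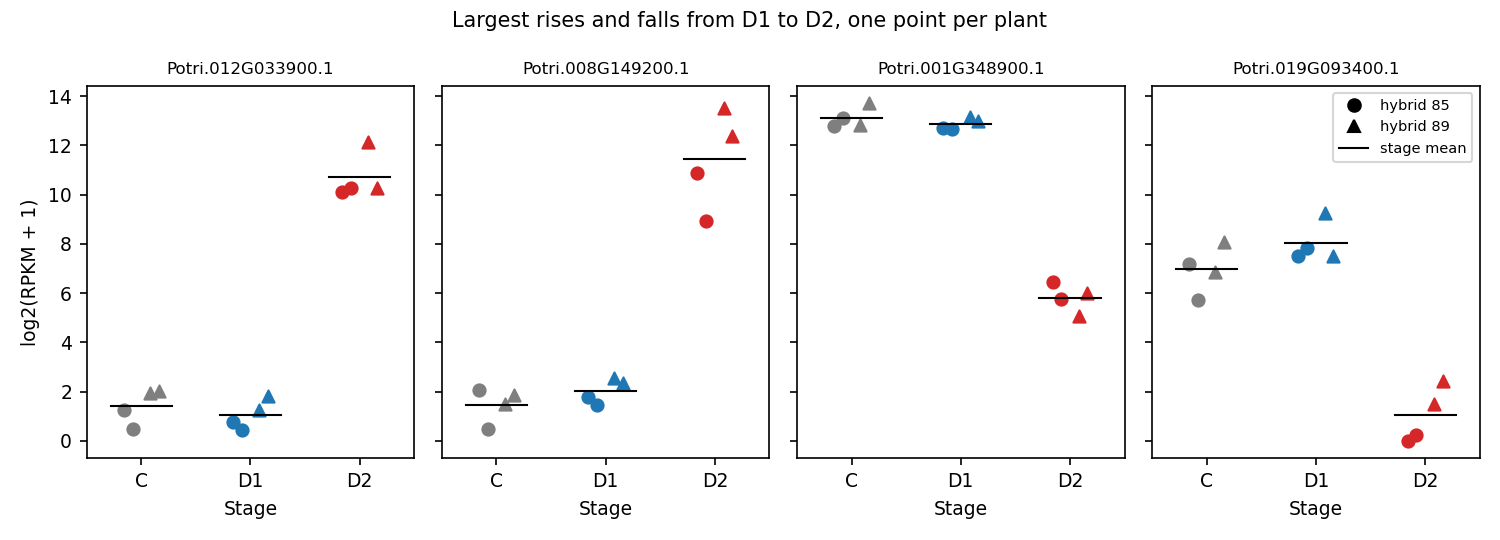
Values of the genes with the largest rises and the largest falls from D1 to D2, as log2(RPKM + 1) in all 12 plants, with circles for hybrid 85, triangles for hybrid 89 and a line at each stage mean. In each gene the D1 points lie near the watered plants (C) and the D2 points lie far from both, as with Potri.001G348900.1, at 6495 to 9043 RPKM in D1 and 32.4 to 85.7 in D2.

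The direction of change varied with how abundant a transcript was. Genes with a mean of 50 to 500 RPKM over the 8 libraries rose most often: of 3195, 1236 rose (38.7%) and 578 fell (18.1%), with a median log2 change of 0.39. Among 12113 genes of 5 to 50 RPKM the directions balanced, with 2031 rises and 1954 falls and a median of -0.01. Genes under 5 RPKM mostly fell where they were called, 1080 against 403 of 6560, with a median of -0.29; the reads behind them are few, and the D2 libraries were on the whole the shallower ones. At 500 to 2000 RPKM, 67 of 198 genes fell and 55 rose, and at 2000 RPKM or more, 13 of 37 fell and 6 rose. The balance in the latter class depends on the scaling, with 8 falls and 7 rises under quantile normalization and 14 falls and 10 rises by limma-voom on recovered reads.

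The rise of the middle class shrank when libraries were forced to one distribution. Under quantile normalization 947 of these 3195 genes rose and 798 fell, with a median of 0.11, while median-ratio scaling gave 1251 and 608 with a median of 0.40. Genes under 5 RPKM stood at 574 rises and 704 falls under quantile normalization, with a median of -0.06. Under median-ratio scaling they stood at 409 rises and 1110 falls, with a median of -0.28. Without replicate 1 of hybrid 89 in D2, the middle class held 1316 rises and 631 falls of 3185. At 500 to 2000 RPKM the median log2 change was -0.50 with this plant and -0.29 without it, and at 2000 RPKM or more -0.78 and -0.24.

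**Figure D3:**
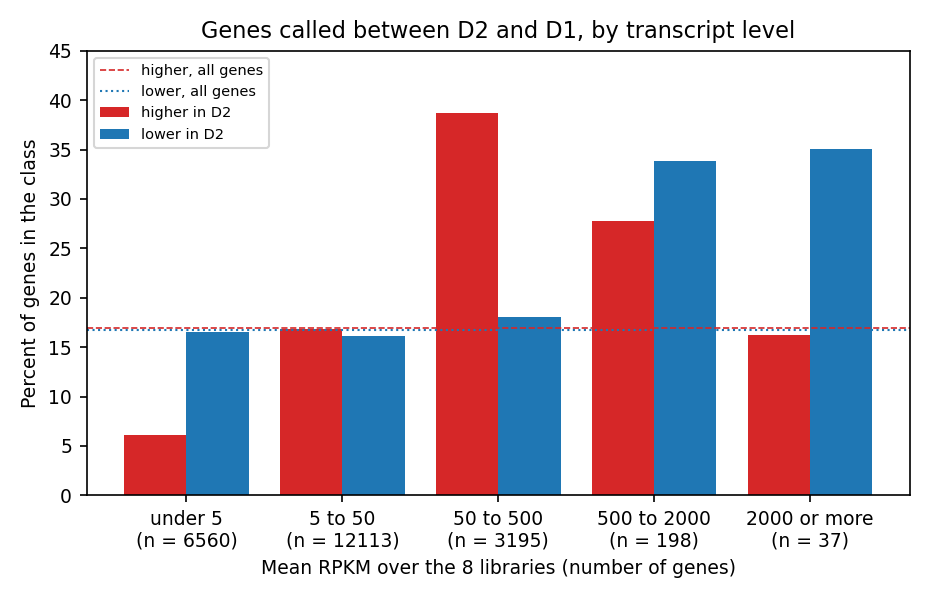
Percent of genes called higher (red) or lower (blue) in D2 than in D1, by mean RPKM over the 8 libraries, with the number of genes in each class and lines at the percentages of all tested genes. Rises peak at 38.7% for 50 to 500 RPKM, and falls reach 33.8% and 35.1% in the most abundant classes; the last of these was 21.6% under quantile normalization.

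The most abundant transcripts were largely exchanged between the stages. Of the 100 genes with the highest mean RPKM in D1 and the 100 highest in D2, 38 were in both lists. Among the 62 that were in the D1 list alone, 51 were called lower in D2, and their median went from 1540 to 409 RPKM. Among the 62 in the D2 list alone, 48 were called higher, and their median went from 218 to 1290 RPKM. Since each list was chosen on one of the compared stages, these directions follow in part from the choice. In the watered plants, which took no part in it, the medians were 1550 and 210 RPKM, near those of D1.

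The 100 genes highest in D1 made up 31.7% to 37.3% of the RPKM sum in the D1 plants and 28.5% to 39.2% in the watered plants. In D2 they made up 27.3% and 25.2% in hybrid 85 and 16.7% and 19.8% in hybrid 89. Every D2 plant was below every D1 plant, and those of hybrid 89 were the lowest. The 100 genes highest in D2 made up 26.9% to 32.0% in D2 and 20.8% to 27.3% in D1, ranges that overlap; each gap follows in part from the stage on which the list was chosen. Of the 100 highest in D1, 61 were called lower, with a median log2 change of -2.10, and without replicate 1 of hybrid 89 in D2 there were 69, with a median of -1.39. The number of genes that together held 50% of the RPKM sum was 307 to 472 in D1 and 464 to 690 in D2, ranges that overlap at their edge.

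By mean RPKM of each stage, the highest-ranking gene was the same in all stages. It was not the highest in every plant. In both D1 plants of hybrid 89 the transcript of rank 2 in D1 stood above it, at 19701 and 14941 RPKM. The same held in watered replicate 2 of hybrid 85, at 29170 against 19820 RPKM. Potri.001G400100.1 on chromosome number 1 (201 bp) had 38494 and 38493 RPKM in hybrid 85 and 9842 and 11816 in hybrid 89 in D1. In D2 it had 71770 and 46750 RPKM in hybrid 85 and 61384 and 43624 in hybrid 89. All D2 plants were above all D1 plants, and in D1 hybrid 85 was well above hybrid 89. The log2 difference of 1.43 ± 0.87 did not pass (SE, limma adjusted p = 0.239). Its call depends on the variance model, since limma without a variance trend gave adjusted p = 0.0191 and limma-voom on recovered reads gave adjusted p = 0.0164. Potri.001G400200.1, the next number in the IDs, has the same coding length of 201 bp and ranked 3 in D2, and reads shared between such copies would be uncertain. It had 12983 and 12950 RPKM in hybrid 85 and 3036 and 3473 in hybrid 89 in D1, and 20811 and 12693 in hybrid 85 and 14114 and 9083 in hybrid 89 in D2. The stages overlapped, and the log2 difference of 1.06 ± 0.59 did not pass (SE, limma adjusted p = 0.194), though it did without a variance trend (limma adjusted p = 0.0487) and by limma-voom (adjusted p = 0.037).

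The transcript of rank 2 in D2 (chromosome number 11, 288 bp) had stood at rank 32 in D1 and 80 in the watered plants. It had 3004 and 4026 RPKM in hybrid 85 and 1967 and 2991 in hybrid 89 in D1. In D2 it had 29463 and 17415 RPKM in hybrid 85 and 23536 and 25767 in hybrid 89, all above D1. It rose by 3.02 ± 0.53 on the log2 scale (SE, limma adjusted p = 0.00291), from 1452 ± 1200 RPKM (SD, n = 4) in the watered plants. The adjusted p of the rise was 0.0545 with no filter on low values and 0.0854 within hybrid 89 alone (limma).

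The transcripts of ranks 2, 3 and 4 in D1 all fell, to ranks 11, 41 and 175 in D2. The first of them (chromosome number 17, 546 bp) had 22827 and 22127 RPKM in hybrid 85 and 19701 and 14941 in hybrid 89 in D1, and 28263 ± 773 RPKM (SD, n = 4) in the watered plants. In D2 it had 9430 and 5507 RPKM in hybrid 85 and 376.7 and 4789 in hybrid 89. All D2 plants were below all D1 plants, and replicate 1 of hybrid 89 was far below the rest. The change of -2.66 ± 0.86 on the log2 scale only just passed (SE, limma adjusted p = 0.0418). That call held in 11 of 24 alternatives, and without replicate 1 of hybrid 89 in D2 the change was -1.72 (limma adjusted p = 0.00639).

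The transcript of rank 3 (chromosome number 4, 561 bp) fell further. It had 13794 and 12621 RPKM in hybrid 85 and 18530 and 11365 in hybrid 89 in D1, and 2672 and 2123 RPKM in hybrid 85 and 72.9 and 1798 in hybrid 89 in D2. On the log2 scale this came to -3.89 ± 0.99 (SE, limma adjusted p = 0.0161), or -2.69 without replicate 1 of hybrid 89 in D2. The call held in 21 of 24 alternatives and was lost within hybrid 89 alone (limma adjusted p = 0.0735). The transcript of rank 4 (chromosome number 10, 1431 bp) went from 10363 to 12685 RPKM in the D1 plants to 740 to 930.6 RPKM in 3 D2 plants and 34.8 RPKM in that same replicate. It fell by 4.95 ± 0.91 on the log2 scale (SE, limma adjusted p = 0.00372), and its call held in 24 of 24 alternatives. In all of these transcripts, then, replicate 1 of hybrid 89 was the lowest D2 plant by a wide margin.

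The remaining transcripts among the 5 highest of either stage did not pass the test. The one of rank 5 in D1 and 4 in D2 (chromosome number 6, 375 bp) had 8642 to 11908 RPKM in D1 and 10302 to 18476 in D2, overlapping ranges, and 4233 ± 1899 RPKM (SD, n = 4) in the watered plants. Its log2 difference of 0.33 ± 0.57 did not pass (SE, limma adjusted p = 0.681). The one of rank 5 in D2 (chromosome number 10, 258 bp) had 4063 to 5198 RPKM in D1 and 5465 to 14345 in D2, without overlap. Its log2 difference of 0.86 ± 0.47 did not pass either (SE, limma adjusted p = 0.194). It passed in 3 alternatives, which were no variance trend (limma adjusted p = 0.0384), limma-voom (adjusted p = 0.0361) and leaving out replicate 1 of hybrid 89 in D2 (limma adjusted p = 0.0383).

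Some genes were read in one drought stage alone. In the whole table, 123 genes had reads in all 4 D2 plants and none in any D1 plant, and 288 had reads in all 4 D1 plants and none in D2. With at least 3 reads in every plant of the one stage, the numbers were 52 and 72. Of these 52 genes of D2, 33 also had no read in any watered plant, whereas all 72 genes of D1 had reads in watered plants. The 52 had a median of 10.5 RPKM in D2 and the 72 a median of 2.76 RPKM in D1. The smaller totals of the D2 libraries make an absence of reads there more frequent, and that part was not tested. The watered libraries had 2534325 to 10509089 reads, and the deeper of them make a read in some watered plant more likely. The part of that depth in the presence of reads in watered plants was not tested either.

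Shorter genes rose more often than longer genes. Longer genes also fell more often, but that excess was not found without replicate 1 of hybrid 85 in D2. Of 4590 genes with a coding length under 600 bp, 978 rose (21.3%) and 624 fell (13.6%), with a median log2 change of 0.10. Of 2412 genes of 2400 bp or more, 192 rose (7.96%) and 482 fell (20.0%), with a median of -0.26. The classes between lay between, at -0.01 for 600 to 1200 bp and -0.12 for 1200 to 2400 bp. The median fell from the shortest to the longest class under quantile normalization (0.13 to -0.17), median-ratio scaling (0.11 to -0.25) and limma-voom on recovered reads (0.14 to -0.31).

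The plants did not share this length pattern to the same degree. Measured from the D1 mean of its hybrid, replicate 1 of hybrid 85 went from 0.31 in the shortest class to -0.46 in the longest, the widest span of the 4 D2 plants. Replicate 2 of hybrid 85 went from 0.05 to -0.15, replicate 1 of hybrid 89 from 0.05 to -0.28 and replicate 2 of hybrid 89 from 0.09 to -0.11. Between the D1 replicates of hybrid 89 the same medians went from 0.05 to -0.13, a span about as wide as in the less affected D2 plants. Those of hybrid 85 in D1 went from -0.07 to -0.10. Length went together with level. Of 4590 genes under 600 bp, 865 had 50 to 500 RPKM, against 119 of 2412 genes of 2400 bp or more. Within 50 to 500 RPKM, medians of replicate 1 of hybrid 85 in D2 declined steadily, from 0.79 to 0.04. The remaining D2 plants had no steady decline there, as in replicate 2 of hybrid 85 (0.425, 0.249, 0.469 and 0.326). In every D2 plant the longest class still stood below the shortest, within this level class and within 5 to 50 RPKM. Without replicate 1 of hybrid 85 in D2, 12.8% of 2381 genes of 2400 bp or more fell and 13.2% of 4336 genes under 600 bp, against 13.6% of all genes, so the share of falls no longer grew with length. The share of rises still declined with length in that fit, from 16.5% in the shortest class to 6.97% in the longest. The medians of these classes were then 0.04 and -0.19. RNA integrity is not among the labels used here, and its part in the length pattern was not tested.

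**Figure D4:**
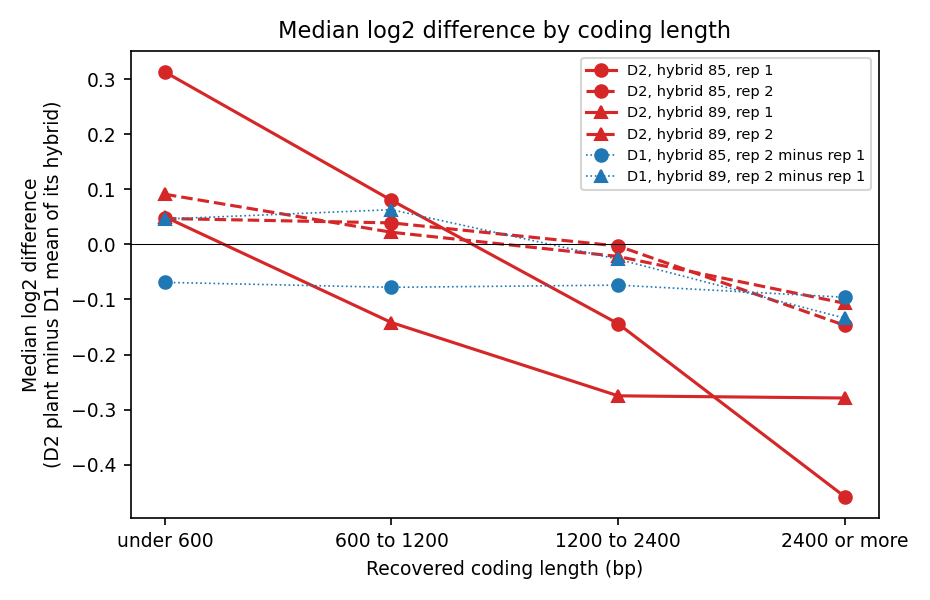
Median log2 difference of each D2 plant from the D1 mean of its hybrid, by class of recovered coding length in bp (red lines), and of D1 replicate 2 from replicate 1 (blue dotted lines). The line of replicate 1 of hybrid 85 in D2 falls furthest, from 0.31 to -0.46, and the D1 line of hybrid 89 falls from 0.05 to -0.13.

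Both hybrids were then compared within themselves, with no library in common. From D1 to D2 the level of 2226 genes (10.1%) rose and that of 1630 (7.37%) fell in hybrid 85, 17.4% of those tested. In hybrid 89, 3384 were higher (15.3%) and 3621 lower (16.4%), 31.7% in all (limma with 4 groups of 2 plants and a shared variance, adjusted p below 0.05). That hybrid 89 had more called genes depended on the fit. With libraries weighted by their quality, 5484 genes were called in hybrid 85 and 5684 in hybrid 89. With each hybrid fitted alone, 2883 were higher and 2615 lower in hybrid 85, and 2491 and 2504 in hybrid 89. The changes in hybrid 89 were wider, with a standard deviation across genes of 1.52 against 1.17 in hybrid 85. Its D2 replicates also differed most from each other, by at least 1 on the log2 scale in 24.6% of genes. The part of replicate 1 of hybrid 89 in D2 in this width was not tested. The called number in hybrid 85 rose to 5846 without replicate 1 and 5851 without replicate 2 of hybrid 89 in D2, which are not plants of that hybrid but enter its test through the shared variance and the choice of genes tested. It fell to 925 and 1012 when the first or second D1 plant of hybrid 85 was left out, and to 1082 and 1620 for its D2 plants. Leaving out the first or second D1 plant of hybrid 89 gave 3214 and 3341 genes for that hybrid, and leaving out the first or second D2 plant gave 5193 and 8572.

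The changes of the hybrids correlated across genes at Pearson's r = 0.689 and Spearman's rho = 0.632 over 22103 genes, which are not independent of each other, and 72.4% had the same sign. Of the genes called higher, 1600 were shared, which is 71.9% of the list of hybrid 85 and 47.3% of that of hybrid 89. Of those called lower, 1092 were shared, 67.0% and 30.2% of the lists. Opposite calls were made in 52 genes.

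Genes called in a fit of one hybrid alone were followed in the plants of the other, which that fit did not contain. The 2883 genes higher in hybrid 85 had a median log2 change of 1.62 there, and of 1.52 and 1.45 in replicates 1 and 2 of hybrid 89. In 79.9% of them both D2 plants of hybrid 89 were above both D1 plants, against 31.5% of all genes with at least 1 RPKM in 2 libraries of that hybrid. The 2615 genes lower in hybrid 85, at -1.70, stood at -1.95 and -1.29 in hybrid 89, with 77.6% separated in that direction against 37.6% of all genes. In the reverse order, 2491 genes higher in hybrid 89 at 2.20 had 1.39 and 1.17 in the plants of hybrid 85, with 76.6% separated against 30.5%. The 2504 genes lower in hybrid 89 at -2.23 had -1.03 and -0.99 there, with 71.8% separated against 34.6%. In every D2 plant the median of these genes thus had the sign found in the other hybrid.

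Where abundance was highest the medians of the hybrids differed. For the 37 genes of 2000 RPKM or more, the median change was 0.27 in hybrid 85 and -1.45 in hybrid 89. By plant it was -0.30 and 0.02 in replicates 1 and 2 of hybrid 85, and -1.58 and -1.04 in those of hybrid 89. Neither plant of hybrid 85 alone reached 0.27, which is a median over genes of the mean change of both plants. At 500 to 2000 RPKM the medians were -0.18 in hybrid 85 and -0.74 in hybrid 89. There replicate 1 of hybrid 89 in D2 alone stood apart, at -1.12 against -0.13, -0.29 and -0.30 in the remaining D2 plants. With 2 plants per hybrid and stage, these differences between the hybrids were not tested.

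The test of the difference itself called 185 genes, 0.837% of those tested. Counted with its sign, the D2 minus D1 change was higher in hybrid 89 in 83 genes (0.376%) and higher in hybrid 85 in 102 (0.461%). A gene that fell further in hybrid 89 thus counts as higher in hybrid 85. The median size of the difference was 3.54 on the log2 scale. At an unadjusted p below 0.05 there were 3581 of 22103 genes (limma). An estimate from the distribution of these p-values put 76.1% of genes without a difference. Genes not called are thus not shown to be alike in the hybrids. In 112 of the 185 genes the change had opposite signs in the hybrids. The number hangs on single plants: it was 2860 without replicate 2 of hybrid 89 in D2, 40 without replicate 2 of hybrid 89 in D1, and 1 to 7 without replicate 1 or 2 of hybrid 85 in either stage or replicate 1 of hybrid 89 in D1. Without replicate 1 of hybrid 89 in D2 it was 250, the one omission of the 8 that moved it by less than 1.5 times.

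The smallest p-value for the difference belonged to Potri.002G070100.1 (chromosome number 2, 309 bp). In hybrid 85 it had no read in either D1 plant, and 199.1 and 195.2 RPKM in D2. In hybrid 89 it had 20.1 and 14.7 RPKM in D1, from 25 and 22 reads. In D2 of that hybrid it had 4.13 and 4.12 RPKM, from 3 and 5 reads, close to the floor. The stages of each hybrid did not overlap, and the order of the stages was turned. The difference in change was -9.46 ± 0.40 (hybrid 89 minus 85, SE, limma adjusted p = 0.000152). Its size depends on the pseudocount, at -12.98 with 0.1 RPKM and -6.62 with 5 RPKM. The watered plants of hybrid 85 stood at 1.85 and 114.9 RPKM, so watered plants of one hybrid also differed widely in this gene.

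Potri.018G098200.1 (chromosome number 18, 393 bp) rose in hybrid 85, from 6.40 and 5.57 RPKM to 61.9 and 61.2. It fell in hybrid 89, from 94.9 and 97.6 RPKM to 14.1 and 9.06. The difference in change was -6.15 ± 0.39 (SE, limma adjusted p = 0.00208). The watered plants had 36.3 and 65.3 RPKM in hybrid 85 and 163.7 and 153.6 in hybrid 89.

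Potri.005G006800.1 (chromosome number 5, 1005 bp) was already high in D1 in hybrid 85, at 54.1 and 75.9 RPKM, and stood at 95.1 and 39.8 in D2. In hybrid 89 it was at 0.25 and 1.03 RPKM in D1, from 1 and 5 reads, and at 235.6 and 319.7 in D2. The watered plants of both hybrids had at most 4.83 RPKM. The change was -0.06 ± 0.45 in hybrid 85 and 7.44 ± 0.45 in hybrid 89, a difference of 7.49 ± 0.63 (SE, limma adjusted p = 0.00965).

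Potri.002G236200.1 (chromosome number 2, 867 bp) fell in hybrid 85, from 6.89 and 6.85 RPKM to 2.55 and 1.80. It rose in hybrid 89, from 2.29 and 3.09 RPKM to 48.1 and 49.3, with a difference in change of 5.08 ± 0.43 (SE, limma adjusted p = 0.00965). The fall in hybrid 85 rests on 19 reads in each D1 plant and 5 in each D2 plant. Its call for the difference was lost in 4 of 21 alternatives, as was that of Potri.005G006800.1.

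**Figure D5:**
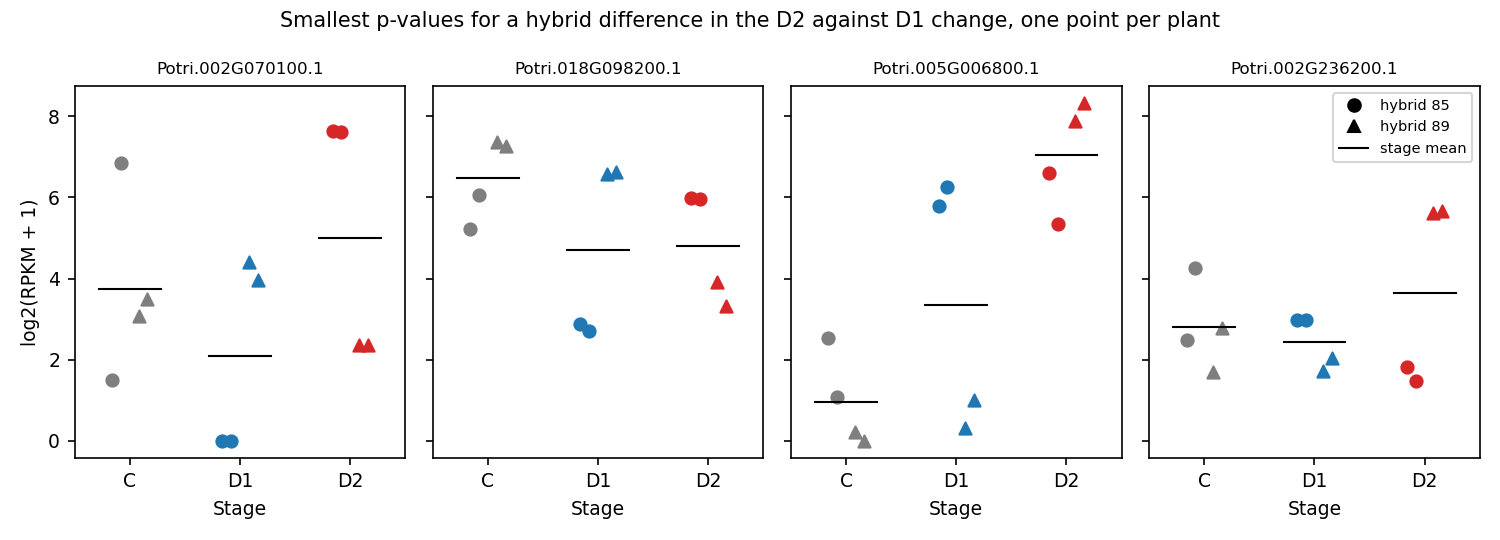
Values of the genes with the smallest p-values for a difference between the hybrids in the change from D1 to D2, as log2(RPKM + 1) in all 12 plants, with circles for hybrid 85, triangles for hybrid 89 and a line at each stage mean. In Potri.018G098200.1 the circles move up from D1 to D2 and the triangles move down, by 3.17 and -2.98 on the log2 scale.

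Called genes were spread over all chromosome numbers in the IDs. The share called between D2 and D1 ranged from 29.9% for chromosome number 18 to 37.9% for 9, around 33.6% for all tested genes. The share of rises ranged from 13.9% for chromosome number 19 to 20.2% for 9. The share of falls ranged from 14.8% for chromosome number 18 to 22.2% for 16. Genes with no chromosome number in the ID had 13.6% rises and 16.5% falls.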

How the data were processed

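RPKM values per library were made by the authors, per the file header, and Trimmomatic 0.32 appears among the tools of the submitters' processing notes. How reads were aligned and counted, whether strand was used, the build and the annotation: each is not given in the sources used here, so near-identical copies, overlapping genes and antisense partners are uncertain. The deposited stage means (3 columns) were not used. Of 41335 IDs, the 22103 with at least 1 RPKM in at least 4 of the 8 libraries were tested on log2(RPKM + 1), a scale that understates changes of low genes. The test was limma 3.58.1 in R 4.3.3 (trended empirical Bayes, Benjamini-Hochberg adjusted p below 0.05) with hybrid as covariate. Changes within hybrids, and their difference, came from 4 groups of 2 plants in one fit.

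Read counts were recovered from the steps between RPKM values: within 0.01 reads, 100% of the values were whole. In 2000 well-read genes 100% of lengths were multiples of 3 bp without that step imposed on them. The library totals were derived with that step, however, so this outcome was fixed in advance. The lengths are therefore taken, and not shown, to be coding lengths. Recovered reads summed to 99.99% to 100% of the recovered totals. Recovery of totals and reads was checked on simulated data built with the same lengths, which do not test the step. The limma-voom test on the recovered reads called 3677 genes higher and 3767 lower. Replicate pairs differed by a chi-square per degree of freedom of 5.29 to 34.2, so none looked like 1 library deposited more than once. Replicate numbers were not treated as pairs.

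Described by ID, or by rank beyond 2 rises and 2 falls, were these genes: the 2 largest rises and falls by log2 change among genes that passed, averaged 5 RPKM or more and did not overlap between stages; the 5 highest of each stage; and the 4 smallest p-values for a hybrid difference. The comparison, rules and lists were chosen with earlier results of these data known. Classes of level and length were repeated under other settings chosen after seeing the data. The alternatives were other pseudocounts, filters, scalings, variance models, covariates and thresholds, all 12 libraries in the fit, limma-voom, a replicate block, each hybrid alone and each library left out. Gene lists, leaf markers and promoter motifs that need gene names were not analysed here.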

Additional observations from a re-analysis of the deposited data

Results flagged for a closer look

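Of 44 sets of 4 plants examined for a lone value far from the rest (each named gene in each stage, and 6 measures per library), 3 held one; chance gives about 5% of such sets. Potri.012G033900.1 stood at 4494 RPKM in replicate 1 of hybrid 89 in D2, far above the other D2 plants. Potri.019G093400.1 stood at 601 RPKM in replicate 1 of hybrid 89 in D1, far above the other D1 plants. In replicate 2 of hybrid 85 in D1, 307 genes held 50% of the RPKM sum, against 453 to 472 in the other D1 plants.

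The change from D1 to D2 differed between the hybrids in 185 genes by the limma test of the difference. The 4 genes with the smallest p-values had differences (hybrid 89 minus 85, log2) of -9.46 for Potri.002G070100.1, -6.15 for Potri.018G098200.1, 7.49 for Potri.005G006800.1 and 5.08 for Potri.002G236200.1.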

How the results depend on the processing

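No gene of the 7423 called was called in the opposite direction in any of the 24 alternatives that tested it. The alternatives refit the same libraries, several with the same log2 changes, so a reversal was hardly possible. Quantile normalization kept the call of 6416 of 7423 genes. Within hybrid 85 alone 4317 of the 7383 called genes tested kept it, and within hybrid 89 alone 3626 of 7382. The numbers higher and lower stayed within 1.5 times of 3731 and 3692, except as follows. An adjusted p below 0.01 left 2166 and 1754 genes, with 1398 in hybrid 85, 3468 in hybrid 89 and 6 for the hybrid difference. A minimum log2 change of 1 in the test left 882 and 624, with 642, 1956 and 12. The hybrid difference gave 66 genes with a pseudocount of 0.1, 87 with no filter on low values and 392 with all 12 libraries in the fit; the cause was not tested. The replicate block gave 3137 higher, 2980 lower and 29 genes for the hybrid difference. The labels tie a replicate number to no shared day, so the numbers were not taken to pair the plants. Deviations from group means correlated between the stages at -0.025 in hybrid 85 and 0.088 in hybrid 89. The deviations of the 2 plants of a group mirror each other, so these values cannot decide whether plants were paired.

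Leaving out one plant gave 2781 to 3543 genes higher and 1985 to 3521 lower (2112 and 1985 lower without replicates 1 and 2 of hybrid 89 in D1), 925 to 5851 in hybrid 85, 3214 to 8572 in hybrid 89 and 1 to 2860 for the hybrid difference. Where this leaves 1 plant in a group, that plant is assumed to vary like the others. The share of called genes that were higher was 46.5% to 58.4% in these fits, against 50.3%. The 4 genes with the largest changes kept their call in 24 of 24 alternatives. Depth limits the genes under 5 RPKM, where 3 reads are worth 0.559 to 1.199 RPKM at the median coding length.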

Other observations

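Genes with consecutive numbers in their IDs changed alike more often than genes with distant numbers. Over 12732 pairs one step apart, the log2 changes from D1 to D2 correlated at r = 0.165, against 0.099 at 2 steps, 0.033 at 5 and 10 steps and 0.004 at 50 steps. Where both genes of a pair were called, 65.5% of 1617 pairs one step apart had the same direction, and 51.3% of 1318 pairs at 50 steps. There were 15 runs of 4 or more consecutive numbers that were all called higher and 18 that were all called lower. Of all tested genes 16.9% were called higher and 16.7% lower, and the number of runs expected from these shares is not given here. The longest run held 6 genes of chromosome number 6, all lower, with a mean log2 change of -1.68. It was chosen after its values were seen. The pairs share libraries and may share reads between similar copies, whose part was not tested, and that the numbers follow positions on the chromosome was not checked here.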
